A study of Mus musculus with 10 samples.

Results

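Heat shock protein and DNAJ chaperone genes were compared between mouse granulosa cells without and with a working copy of the progesterone receptor gene, on Affymetrix whole-transcript arrays. They were 70 of 19938 measured genes, chosen because their symbol begins with Hspa, Hspb, Hspd, Hspe, Hsph, Hsp90, Dnaja, Dnajb or Dnajc followed by a number, each read by its brightest probe set annotated with a single symbol. They comprise 25 heat shock protein genes and 45 DNAJ genes (4 Dnaja, 13 Dnajb and 28 Dnajc). By textbook location and role, 31 were placed in the cytosol (11 of the HSP70, HSP110 and HSP90 type, 8 small heat shock proteins and 12 DNAJA or DNAJB proteins), 13 in or at the endoplasmic reticulum (ER) and 8 in mitochondria. A further 13 were grouped as specialised DNAJC proteins, and 5 (Dnajc4, Dnajc22, Dnajc25, Dnajc27 and Dnajc28) were assigned no location.

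PRKO mice were homozygous for a lacZ knock-in that disrupts both isoforms of the receptor, and PR+/- mice, the controls, carried the same insertion on 1 allele, so no group was free of it. Mice of both genotypes received 5 IU of equine chorionic gonadotropin at 21 to 23 days of age, which stimulates follicle growth. After another 44 to 47 h they received 5 IU of human chorionic gonadotropin (hCG), which triggers ovulation, and the cells were taken 8 h later by puncture of antral follicles. Each array read RNA pooled from 3 animals, which gave 5 pools from 15 animals per genotype. The insertion is carried by every cell of the animal, so the comparison is of whole-body genotypes in hormone-primed, prepubertal mice at 1 time.

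Array medians over all probe sets were 6.48 to 6.55 on the log2 scale, and pairs of arrays correlated at 0.973 to 0.992 over all probe sets (0.986 to 0.995 over the 19938 genes). Pgr, the targeted gene, read 6.69, 6.26, 6.27, 6.15 and 6.90 in PRKO pools, against 6.32, 7.70, 6.07, 7.02 and 7.45 in PR+/- pools. The genotypes overlapped for Pgr (log2 difference -0.46, SE 0.27, limma adjusted p = 0.527), and since no source used here places its probe set relative to the lacZ cassette, this reading does not check the labels. The mean level of 9 granulosa markers ran from 10.21 to 10.89 in PRKO pools and from 10.20 to 10.67 in PR+/- pools. Markers of theca and stroma averaged 8.50 to 9.49 in PRKO pools and 8.53 to 9.21 in PR+/- pools, and oocyte markers 8.31 to 9.21 in PRKO pools and 8.37 to 9.10 in PR+/- pools, so the pools held RNA of other ovarian cells too. Of the granulosa markers 6 had an unadjusted p under 0.05, where 13.0% of all genes did, with a list median of 0.24, and of the 6 endothelial and 6 leukocyte markers 1 each. None of the marker genes, nor the 1 erythroid gene measured (Alas2), passed the limma test after adjustment. In such pooled RNA, fewer cells of a type and less RNA per cell cannot be told apart.

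Heat shock proteins of the HSP70 and HSP90 families bind unfolded or maturing proteins and release them in cycles driven by ATP. DNAJ proteins carry a J domain that stimulates the ATPase of an HSP70 partner and brings it to its substrates, while small heat shock proteins hold unfolding proteins without using ATP. In the cytosol, an HSP70 and HSP90 relay also folds steroid receptors, the progesterone receptor among them, into a form that can bind hormone. Cytosolic stress genes are induced through heat shock factor, which binds inverted repeats of GAA, and ER chaperones through the unfolded protein response.

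None of the 70 chaperone genes differed between PRKO and PR+/- granulosa cells at a limma adjusted p under 0.05, where 2.46% of all genes tested did (1.71% lower and 0.752% higher in PRKO). At an unadjusted p under 0.05 limma counted 3 chaperones (Dnajc14, Dnajc17 and Hspa2), against 13.0% of all genes. An exact two-sided permutation test over the 252 splits of the 10 pools counted 6 at an unadjusted p under 0.05, against 12.7% of all genes, but after adjustment over all genes it cannot go below 0.180 in these data, so it counted 0 of any kind. The log2 differences (PRKO minus PR+/-) ran from -0.24 for Hspb1 to 0.25 for Hspe1, with a median of 0.01, beside a median of -0.02 over all genes. For 68 of the 70 chaperones the 95% interval of the difference lay within 1.5-fold in both directions, as it did for 95.3% of all genes. The exceptions were Hspa1a and Hspb1, whose levels differed most between pools of the same genotype. In both genotypes 9 of the 70 averaged below 5.86, the 95th percentile of olfactory receptor genes, taken here as background. So did 6508 of the 19938 genes, and a small difference at background does not show a steady level. The plot of all differences shows every interval but those of Dnajc14, Dnajc17 and Hspa2 crossing 0.

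**Figure D1:**
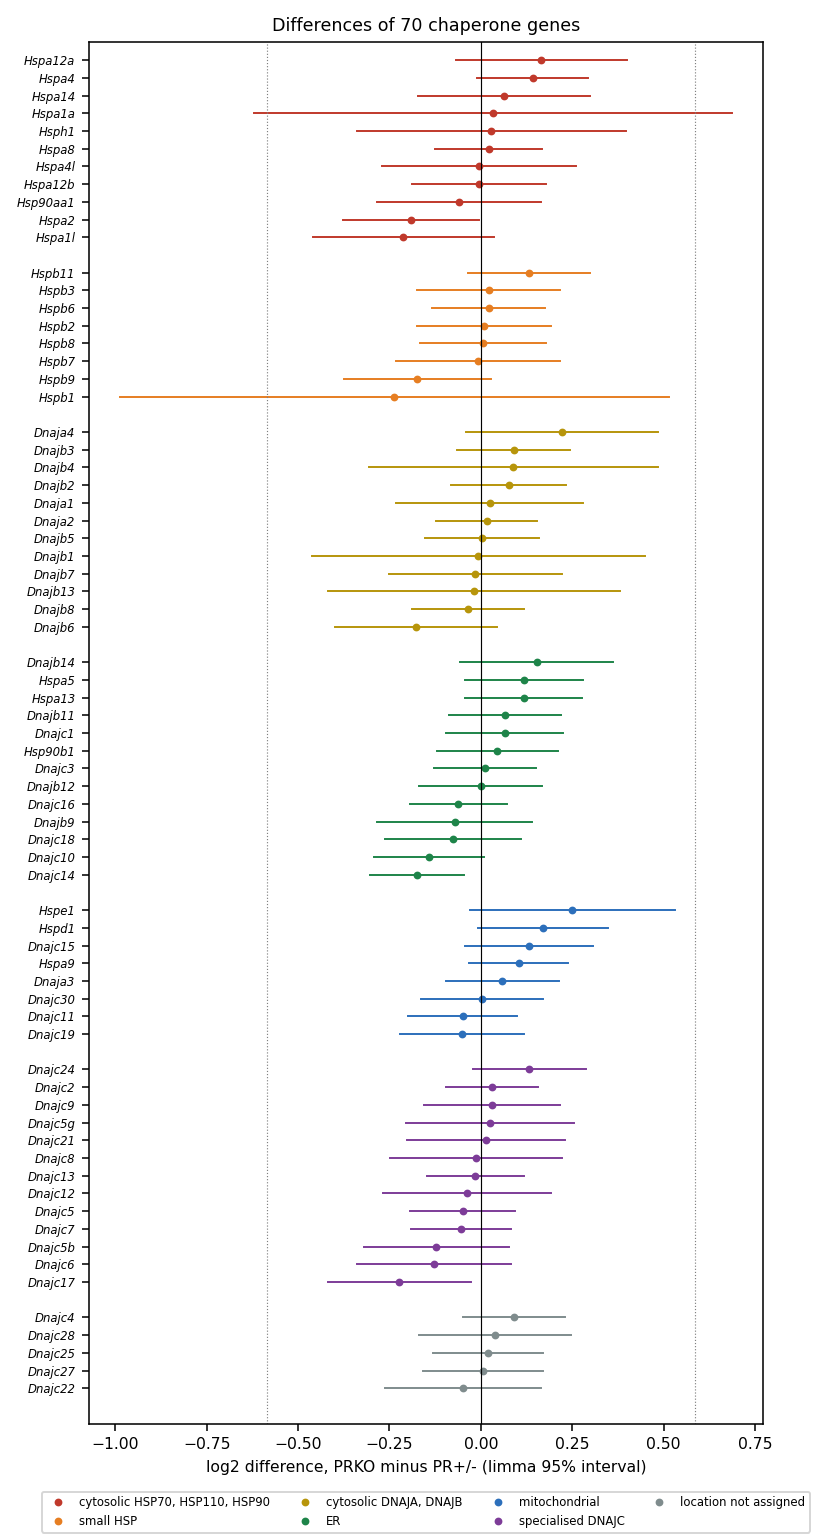
Difference between PRKO and PR+/- pools for each of the 70 chaperone genes, as log2 PRKO minus PR+/- on the horizontal axis, with genes grouped and coloured by location. Points are limma estimates from 5 PRKO and 5 PR+/- pools, bars are 95% intervals and dotted lines mark 1.5-fold either way. The points lie between -0.24 and 0.25, and only the bars of Hspa1a and Hspb1 pass a dotted line.

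Among the 11 cytosolic HSP70, HSP110 and HSP90 genes the median difference was 0.02 and 6 estimates lay above 0. Hspa1a encodes the stress-inducible HSP70. It read 11.26, 9.87, 11.35, 11.16 and 12.08 in PRKO pools, against 11.46, 10.67, 10.81, 11.46 and 11.16 in PR+/- pools. PRKO pools held both the lowest and the highest value, with every PR+/- pool between them, and the log2 difference was 0.03 (SE 0.30, 95% interval -0.62 to 0.69, limma adjusted p = 0.980). Its near-identical neighbour Hspa1b has no probe set of its own among those used here, and cross-hybridisation between the pair was not tested.

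Hsph1 encodes HSP110, which exchanges the nucleotide of HSP70. It read 11.50, 10.72, 11.64, 11.50 and 11.81 in PRKO pools, against 11.65, 11.17, 11.16, 11.52 and 11.53 in PR+/- pools. PRKO pool 2 was again the lowest and PRKO pool 5 the highest, and the genotypes differed by 0.03 on the log2 scale (SE 0.17, limma adjusted p = 0.969). Hsp90aa1, the inducible HSP90, read 12.53, 12.04, 12.51, 12.49 and 12.63 in PRKO pools, against 12.58, 12.41, 12.35, 12.64 and 12.51 in PR+/- pools. Its log2 difference was -0.06 (95% interval -0.28 to 0.16), with PRKO pool 2 below all the others. Hsp90ab1, the constitutive HSP90, was not analysed here, since no probe set used carries its symbol alone.

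The other 8 genes of this group had within-genotype SDs of 0.08 to 0.23 on the log2 scale, beside 0.18 for Hsp90aa1. Hspa8, the constitutive HSP70, read 12.88, 12.79, 12.77, 12.86 and 12.98 in PRKO pools, against 12.91, 12.87, 12.70, 12.84 and 12.84 in PR+/- pools, a log2 difference of 0.02. These values came from a probe set whose identifier lies outside the block of identifiers of the gene's own chromosome. The probe set inside the block read 12.80, 11.34, 12.27, 12.57 and 12.59 in PRKO pools, against 12.42, 12.41, 12.34, 12.31 and 12.21 in PR+/- pools, and there PRKO pool 2 was the lowest. Hspa8 was therefore steady between pools on one probe set and low in PRKO pool 2 on the other, while the genotype difference lay between -0.02 and 0.02 on all 3 of its probe sets. Dnaja1, Hsp90aa1, Hspb1, Hspd1 and Hspe1 were likewise read by a brightest probe set outside the block of their chromosome. For these genes the difference moved by at most 0.03 between probe sets.

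Hspa4, a relative of HSP110, read 10.44, 10.41, 10.48, 10.43 and 10.66 in PRKO pools, against 10.37, 10.42, 10.21, 10.35 and 10.35 in PR+/- pools. The ranges met only between PRKO pool 2 and PR+/- pool 2, and the log2 difference was 0.14 (95% interval -0.01 to 0.29, limma adjusted p = 0.428). Hspa2, a testis-enriched HSP70, read 6.65, 6.44, 6.65, 6.58 and 6.89 in PRKO pools, against 6.84, 6.66, 6.83, 6.90 and 6.93 in PR+/- pools. The difference of -0.19 (SE 0.09) did not pass after adjustment (limma adjusted p = 0.368). Hspa1l, an HSP70 of the testis, was not above the level of olfactory receptor genes, taken here as background (95th percentile 5.86), in either genotype. It read 5.18, 5.45, 5.71, 5.47 and 5.41 in PRKO pools, against 5.71, 5.28, 5.88, 5.73 and 5.69 in PR+/- pools. Differences of the other 4 genes were 0.17 for Hspa12a, 0.06 for Hspa14 and within 0.01 of 0 for Hspa12b and Hspa4l.

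The 8 small heat shock protein genes had a median difference of 0.01, with 5 estimates above 0. Hspb1, encoding HSP27 (HSP25 in mouse), which binds unfolding proteins and actin, read 8.17, 7.06, 8.94, 8.61 and 9.65 in PRKO pools. It read 9.08, 8.34, 8.44, 8.91 and 8.86 in PR+/- pools. The PRKO pools spread over 2.59 log2 units and the PR+/- pools over 0.74, and the PR+/- range lay wholly inside the PRKO one. The log2 difference of -0.24 (SE 0.35, 95% interval -0.99 to 0.51, limma adjusted p = 0.834) was 0.12 without PRKO pool 2.

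Hspb9, a testis small heat shock protein, read 6.32, 6.10, 6.18, 6.28 and 5.88 in PRKO pools, against 6.19, 6.20, 6.50, 6.34 and 6.40 in PR+/- pools. Hspb11, which despite its name is a subunit of the intraflagellar transport machinery, read 5.42, 5.39, 5.48, 5.52 and 5.70 in PRKO pools, against 5.43, 5.37, 5.21, 5.41 and 5.44 in PR+/- pools. Both overlapped between genotypes (log2 differences -0.17 and 0.13, limma adjusted p = 0.469 and 0.524). Hspb3, Hspb7 and Hspb11 were at background in both genotypes, and the differences of Hspb2, Hspb3, Hspb6, Hspb7 and Hspb8 lay between -0.01 and 0.02.

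The 12 cytosolic DNAJA and DNAJB genes had a median difference of 0.01, with 7 estimates above 0. Dnajb1 encodes HSP40, the stress-inducible J partner of HSP70. It read 10.59, 9.71, 10.74, 10.55 and 10.87 in PRKO pools, against 10.90, 10.12, 10.10, 10.88 and 10.51 in PR+/- pools. PRKO pool 2 was lowest, PR+/- pools 2 and 3 came next, and the genotype means differed by -0.01 (SE 0.21, limma adjusted p = 0.993). Dnaja4, a relative of Dnaja1, read 9.76, 9.21, 9.52, 9.39 and 9.93 in PRKO pools, against 9.35, 9.33, 9.12, 9.41 and 9.50 in PR+/- pools. Dnajb6, which keeps aggregation-prone proteins soluble, read 8.08, 8.02, 8.42, 8.44 and 8.40 in PRKO pools, against 8.63, 8.57, 8.41, 8.36 and 8.27 in PR+/- pools.

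Neither Dnaja4 (log2 difference 0.22, limma adjusted p = 0.486) nor Dnajb6 (-0.18, 0.516) passed, and their genotypes overlapped. Dnajb3, a testis J protein, was at background, with 4.32, 4.42, 4.50, 4.44 and 4.42 in PRKO pools and 4.44, 4.18, 4.44, 4.27 and 4.32 in PR+/- pools. Dnajb4, another HSP70 partner of the Dnajb1 type, read 10.33, 9.42, 10.27, 10.36 and 10.51 in PRKO pools, against 10.37, 9.98, 9.72, 10.36 and 10.02 in PR+/- pools. PRKO pool 2 was its lowest pool too. The remaining 7 (Dnaja1, Dnaja2, Dnajb2, Dnajb5, Dnajb7, Dnajb8 and Dnajb13) had differences between -0.04 and 0.08, and of these Dnajb7 was at background.

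Several cytosolic genes spread widely between pools of the same genotype. The within-genotype SD of 6 chaperones lay in the top 5% of all genes (percentage of all genes 5.00), and all 6 were cytosolic, with none of the ER or mitochondrial genes among them. These were Hspb1 (SD 0.72 on the log2 scale), Hspa1a (0.62), Dnajb1 (0.42), Dnajb13 (0.37), Dnajb4 (0.36) and Hsph1 (0.34), where the median gene had an SD of 0.14. Between the lowest and highest of the 10 pools this was 6.0-fold for Hspb1, 4.63-fold for Hspa1a and 2.28-fold for Dnajb1. The median chaperone stood at the 40.9th percentile of SD among all genes, the median cytosolic one at 73.0, the median ER one at 21.3 and the median mitochondrial one at 28.3. Over the other settings the cytosolic median ran from 58.6 (without PR+/- pool 2) to 76.7 (without PRKO pool 3), and the ER median from 16.9 (without PR+/- pool 1) to 32.8 (arrays centred on their median). Without PRKO pool 2 the count fell to 4, the SDs of Dnajb4 and Hsph1 being then 0.22 and 0.20, and those of Hspb1, Hspa1a and Dnajb1 0.47, 0.39 and 0.31. Dnajb13, a J protein of sperm flagella and motile cilia, owed its place to PRKO pool 4 and was in the top 5% no longer without it (SD 0.24).

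**Figure D2:**
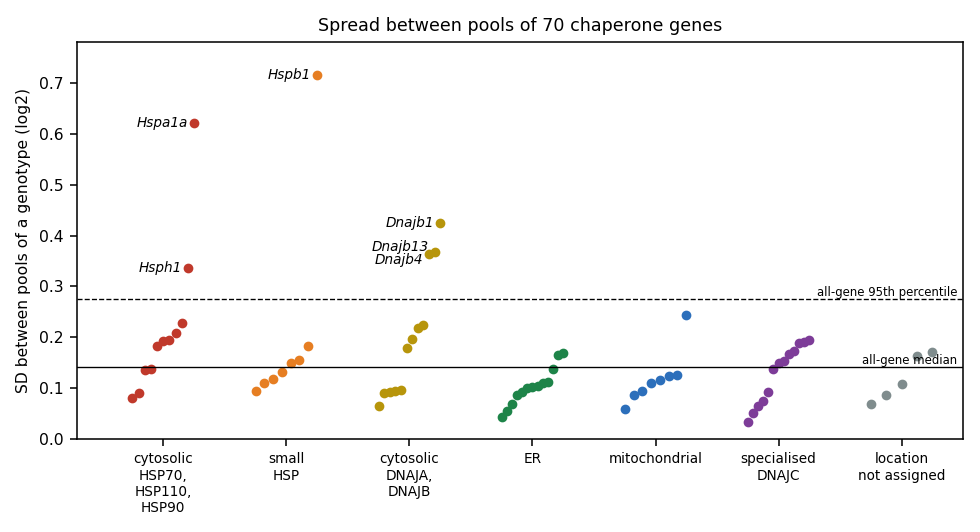
SD between pools of the same genotype (log2 units, pooled over 5 PRKO and 5 PR+/- pools) for each of the 70 chaperone genes, by location. The dashed line is the 95th percentile over all genes and the solid line the all-gene median of 0.14. The 6 labelled genes above the dashed line are all cytosolic, and every ER gene is at or below 0.17.

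PRKO pool 2 was the lowest of the 10 pools for 17 of the 70 chaperones, against 8.59% of all genes. PRKO pool 5 was the highest for 19, against 14.6% of all genes. Relative to the median of the other 4 PRKO pools, PRKO pool 2 was 3.28-fold lower for Hspb1, 2.69-fold for Hspa1a, 1.94-fold for Dnajb1, 1.90-fold for Dnajb4 and 1.80-fold for Hsph1. For the ER chaperones Hspa5 and Hsp90b1 it was 1.15-fold and 1.06-fold lower. The array of PRKO pool 2 did not stand apart over all genes, with a mean correlation of 0.992 with the others over the 19938 genes (0.991 to 0.993 for the 10 arrays). Its mean over 9 early-response genes was the lowest of the 10 pools, at 10.19, with 10.35 to 10.73 in the other PRKO pools and 10.27 to 10.55 in PR+/- pools. Its theca and stroma markers lay 0.57, its oocyte markers 0.59 and its granulosa markers 0.36 log2 units (medians) above their mean over the pools, and the erythroid gene Alas2 0.80. Theca and stroma markers were as high in PRKO pool 4 (0.60), where Hspa1a read 11.16. Granulosa markers were nearly as high in PRKO pool 3 (0.34, Hspa1a 11.35), with PR+/- pool 2 next (0.19, Hspa1a 10.67). Oocyte markers were also above their mean in PR+/- pools 2 (0.48) and 3 (0.37), where Hspa1a was next lowest (10.67 and 10.81). They lay below it in every pool but these and PRKO pool 2. The part of all these markers in the low stress genes was not tested.

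Without PRKO pool 2 the differences of the stress genes were 0.35 for Hspa1a, 0.28 for Dnajb4, 0.21 for Hsph1, 0.19 for Dnajb1 and 0.12 for Hspb1. Their limma adjusted p lay between 0.400 and 0.899, and none of the 70 chaperones passed without that pool. The plot of values by pool shows the shared low of PRKO pool 2 in the cytosolic stress genes.

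**Figure D3:**
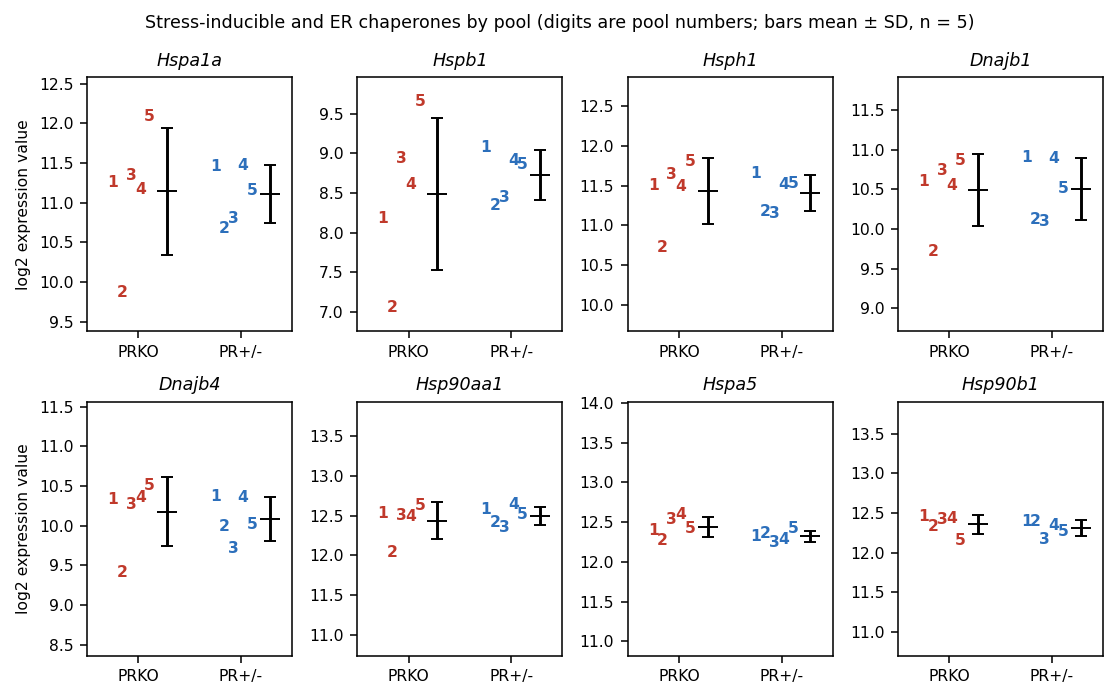
Log2 array value in each pool of 6 cytosolic genes and the ER genes Hspa5 and Hsp90b1, with PRKO pools left of PR+/- pools, digits for pool numbers and bars for mean ± SD (n = 5). In the 6 cytosolic genes PRKO pool 2 is the lowest point (9.87 for Hspa1a and 7.06 for Hspb1), while the pools of Hspa5 and Hsp90b1 lie closer together.

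The pattern of Hspa1a over the 10 pools was compared with that of the other 69 chaperones and of 82 genes from companion lists, 151 relations in all. Hspa1a was taken as the anchor after its spread had been seen. For 7 chaperones Pearson's r passed a permutation test after adjustment over the 151, and for 3 of them (Dnajb1, Hsp90aa1 and Dnajb4) Spearman's rho passed as well. Hspa1a was not compared with all 19938 genes, so no all-gene share stands beside these counts. Whether they are high for this family therefore cannot be told. Points share the same 10 arrays, so array-wide factors enter every relation.

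Dnajb1 followed Hspa1a with r = 0.934 (permutation p = 3e-05, adjusted 0.00403) and rho = 0.939 (permutation p = 0.00031, adjusted 0.0234). Hsp90aa1 had r = 0.940 (permutation p = 8e-05, adjusted 0.00403) and rho = 0.915 (permutation p = 0.00047, adjusted 0.0237). Dnajb4 had r = 0.917 (permutation p = 0.00022, adjusted 0.00785) and rho = 0.927 (permutation p = 0.0003, adjusted 0.0234). When PRKO pools 2 and 5, the farthest from the median of Hspa1a, were left out, r was 0.985 for Dnajb1, 0.904 for Hsp90aa1 and 0.816 for Dnajb4.

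Hsph1 had r = 0.968 (permutation p = 7e-05, adjusted 0.00403) and rho = 0.855 (permutation p = 0.00286, adjusted 0.0864), and r was 0.928 without those pools. Hspb1 had r = 0.937 (permutation p = 0.00048, adjusted 0.0121) and rho = 0.830 (permutation p = 0.00476, adjusted 0.103), with r = 0.664 without them. Dnaja1 and Dnajc12, a partner of aromatic amino acid hydroxylases, passed by r at an adjusted permutation p of 0.0435 each, with r = 0.807 and 0.831 (permutation p = 0.00259 and 0.00213), and rho = 0.891 and 0.745 (permutation p = 0.00137 and 0.0181, adjusted 0.0517 and 0.228). Without the same pools their r was 0.734 and 0.635.

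Outside the family 2 genes passed by r. Atf3, an early stress-response transcription factor, had r = 0.932 (permutation p = 0.00026, adjusted 0.00785), rho = 0.806 (permutation p = 0.00751, adjusted 0.126) and r = 0.818 without the 2 pools. Sil1, a nucleotide exchange factor of the ER HSP70, ran the other way, with r = -0.822 (permutation p = 0.0025, adjusted 0.0435), rho = -0.733 (permutation p = 0.021, adjusted 0.244) and r = -0.565 without them. The ER chaperones Hspa5 (r = 0.362, permutation p = 0.306, adjusted 0.593) and Hsp90b1 (r = -0.163, permutation p = 0.65, adjusted 0.842) did not pass, and neither did the constitutive Hspa8 (r = 0.599, permutation p = 0.0678, adjusted 0.310) on its brightest probe set.

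**Figure D4:**
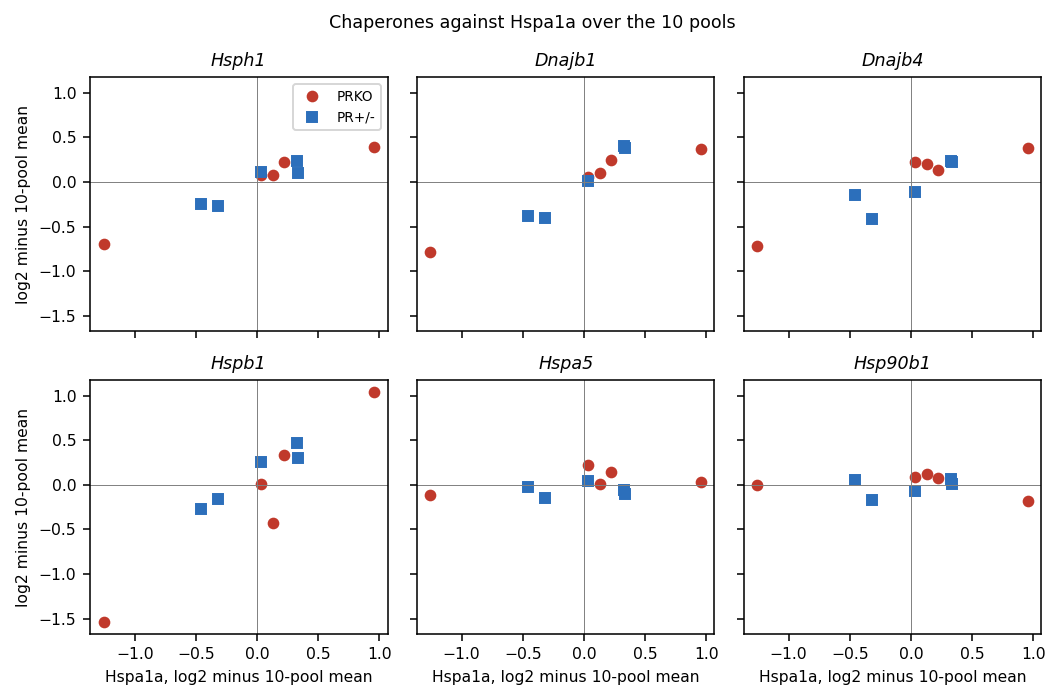
Log2 value minus the gene's mean over the 10 pools, for 4 cytosolic genes and the ER genes Hspa5 and Hsp90b1 on the vertical axis against Hspa1a on the horizontal axis, with PRKO pools as circles and PR+/- pools as squares. Hsph1, Dnajb1, Dnajb4 and Hspb1 climb with Hspa1a (r = 0.917 to 0.968), with PRKO pool 2 at the lower left, and Hspa5 and Hsp90b1 stay near 0.

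Promoter sequence of the co-varying genes is shown because heat shock factor binds repeats of GAA. The windows are those of RefSeq for GRCm38.p6, searched on both strands over the 250 bases before the gene's start. A pair of inverted units (GAA and TTC in either order, with any 2 bases between) lay in the windows of Hspa1a, Hsph1, Hspb1, Dnaja1 and Dnajb4. It also lay in those of Dnaja4, Dnajb6, Dnajc10, Dnajc27, Hspb3, Hspb6, Hspd1 and Hspe1. Their r with Hspa1a did not pass and ran from -0.318 for Dnajc10 to 0.725 for Dnaja4, so the pair did not mark the co-varying genes alone. The Dnajb1 window held none, and Hsp90aa1 and Dnajc12 had no window. Capitals below mark each match, with up to 30 bases on either side and none past the gene's start, at chr17:34972223-34972290 (minus strand) for Hspa1a, chr5:149636337-149636399 (minus) for Hsph1, chr5:135887772-135887859 (plus) for Hspb1 and chr4:40722314-40722381 (plus) for Dnaja1.
Hspa1a: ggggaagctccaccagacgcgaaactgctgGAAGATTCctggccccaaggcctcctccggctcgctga
Hsph1: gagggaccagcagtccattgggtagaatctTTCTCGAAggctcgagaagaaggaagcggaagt
Hspb1: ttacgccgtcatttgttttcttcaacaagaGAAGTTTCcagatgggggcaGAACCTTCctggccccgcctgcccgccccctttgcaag
Dnaja1: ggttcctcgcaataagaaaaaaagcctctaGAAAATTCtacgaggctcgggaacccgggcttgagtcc
Over the family, 57 of the 70 genes had a window and 13 of these (22.8%) held a match, against 14.5% of all 27025 genes with one. Among cytosolic genes 9 of 28 (32.1%) did, among mitochondrial genes 2 of 5 (40%, Hspd1 and Hspe1) and among ER genes 1 of 11 (Dnajc10). Hspd1 and Hspe1 start from a shared region, so the same letters may be counted for both. A match is a description of letters and not a bound site.

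The 13 ER genes had a median difference of 0.01, with 7 estimates above 0 and a range of -0.18 to 0.15. None was at background, and all 13 intervals lay between -0.30 and 0.36. Dnajc14, a multi-span ER membrane J protein, was the only chaperone whose genotypes did not overlap, where 4.42% of all genes did not. It read 9.57, 9.58, 9.65, 9.63 and 9.67 in PRKO pools, against 9.79, 9.75, 9.76, 9.84 and 9.84 in PR+/- pools. Its SD within genotypes was 0.04, and the log2 difference of -0.18 (SE 0.06, 95% interval -0.30 to -0.05) gave a limma adjusted p of 0.197, the smallest of the 70. The exact permutation p was 0.00794, the smallest that 252 splits allow.

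Hspa5 encodes BiP, the HSP70 of the ER lumen and the sensor-bound chaperone of the unfolded protein response. It read 12.39, 12.27, 12.53, 12.60 and 12.42 in PRKO pools, against 12.32, 12.36, 12.24, 12.28 and 12.42 in PR+/- pools (log2 difference 0.12, SE 0.08, limma adjusted p = 0.564). Hsp90b1, encoding the ER HSP90 GRP94, read 12.46, 12.34, 12.41, 12.43 and 12.15 in PRKO pools, against 12.40, 12.39, 12.17, 12.34 and 12.26 in PR+/- pools. Both overlapped between genotypes. Dnajb9, encoding ERdj4, a J protein induced by ER stress, read 9.73, 9.39, 9.40, 9.46 and 9.72 in PRKO pools, against 9.60, 9.57, 9.40, 9.64 and 9.85 in PR+/- pools. Hsp90b1 and Dnajb9 differed by 0.04 and -0.07 on the log2 scale, both inside the spread of their pools.

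Dnajc10, encoding the disulfide reductase ERdj5, read 10.24, 10.46, 10.27, 10.33 and 10.27 in PRKO pools, against 10.50, 10.48, 10.32, 10.54 and 10.46 in PR+/- pools. PRKO pool 2 lay among the PR+/- pools and the other 4 PRKO pools near the lowest of them (log2 difference -0.14, limma adjusted p = 0.416). Hspa13, an HSP70-like protein of microsomes, read 10.49, 10.51, 10.45, 10.57 and 10.70 in PRKO pools, against 10.46, 10.48, 10.27, 10.38 and 10.54 in PR+/- pools (log2 difference 0.12, limma adjusted p = 0.561). The other 7 not yet described had differences of 0.15 for Dnajb14, 0.07 for Dnajb11, 0.06 for Dnajc1, 0.01 for Dnajc3, under 0.01 either way for Dnajb12, -0.06 for Dnajc16 and -0.08 for Dnajc18. Dnajb11 and Dnajc3 encode J partners of BiP in the lumen, and Dnajb12 and Dnajb14 encode membrane J proteins that serve in ER-associated degradation.

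The promoters of Hspa5, Hsp90b1 and Dnajc3 are shown because each holds the ER stress element (CCAAT, any 9 bases, then CCACG), which factors of the unfolded protein response bind. A match on either strand was found in 3 of 11 ER windows (27.3%), against 0.130% of all genes, and in no other chaperone window. Capitals mark the element at chr2:34771995-34772073 (plus strand) for Hspa5, chr10:86705503-86705686 (minus) for Hsp90b1, where it occurs on both strands, and chr14:118937797-118937875 (plus) for Dnajc3, each in RefSeq's GRCm38.p6.
Hspa5: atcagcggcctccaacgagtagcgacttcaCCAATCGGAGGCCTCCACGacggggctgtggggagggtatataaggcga
Hsp90b1: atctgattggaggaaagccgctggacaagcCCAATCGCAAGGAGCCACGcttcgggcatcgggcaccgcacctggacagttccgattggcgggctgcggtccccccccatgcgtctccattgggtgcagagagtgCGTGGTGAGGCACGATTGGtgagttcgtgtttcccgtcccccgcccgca
Dnajc3: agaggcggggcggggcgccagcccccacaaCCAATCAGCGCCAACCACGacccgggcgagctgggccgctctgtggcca
Of the 57 chaperone windows, 0 held the response element of progesterone and glucocorticoid receptors (G, any base, ACA, any 3 bases, TGT, any base, C), which 0.440% of all windows did, and nothing follows from this about the receptor.

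The 8 mitochondrial genes had a median difference of 0.08, with 6 estimates above 0 and none passing. Hspd1 and Hspe1 encode HSP60 and HSP10, the 2 parts of the mitochondrial chaperonin. Hspd1 read 12.05, 11.72, 11.90, 11.92 and 12.06 in PRKO pools, against 11.87, 11.78, 11.60, 11.85 and 11.70 in PR+/- pools (log2 difference 0.17, 95% interval -0.01 to 0.35, limma adjusted p = 0.417). Hspe1 read 12.01, 11.61, 11.80, 11.76 and 11.96 in PRKO pools, against 11.78, 11.79, 11.07, 11.74 and 11.50 in PR+/- pools (0.25, 95% interval -0.03 to 0.53, limma adjusted p = 0.453). For both, PR+/- pool 3 was the lowest of the 10, and the genotypes overlapped.

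Hspa9, encoding mortalin, the HSP70 of the matrix, read 11.35, 11.19, 11.32, 11.35 and 11.27 in PRKO pools, against 11.20, 11.23, 11.11, 11.22 and 11.20 in PR+/- pools (log2 difference 0.10, limma adjusted p = 0.536). PRKO pool 2 alone kept the genotypes from separating. The J proteins Dnajc15, Dnaja3, Dnajc30, Dnajc11 and Dnajc19 differed by 0.13, 0.06, 0.00, -0.05 and -0.05. Hspd1 and Hspe1 are neighbours that start from a shared region, shown because it holds 2 overlapping matches to a run of 3 alternating units (GAA and TTC in turn, with any 2 bases between, in capitals, at chr1:55088029-55088106 on the plus strand of GRCm38.p6 in RefSeq). Such a run was found for Hspd1, Hspe1 and Dnajb6, 3 of 57 windows (5.26%), against 0.514% of all genes, and it overlaps the shorter motif. The same letters may be counted for both Hspd1 and Hspe1, so the 3 windows need not hold separate runs.
Hspe1: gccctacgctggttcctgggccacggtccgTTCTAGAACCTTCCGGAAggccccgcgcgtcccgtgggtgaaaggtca

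The 13 specialised DNAJC genes had a median difference of -0.02, with 5 estimates above 0. Dnajc17, a J protein tied to splicing, read 8.11, 7.92, 8.15, 7.97 and 7.95 in PRKO pools, against 8.12, 8.22, 8.55, 8.09 and 8.24 in PR+/- pools. Its difference of -0.22 (SE 0.09, 95% interval -0.42 to -0.03) did not pass (limma adjusted p = 0.304), and the ranges overlapped. Dnajc24, which serves in diphthamide synthesis, read 8.00, 8.09, 8.04, 8.18 and 8.30 in PRKO pools, against 8.00, 7.97, 7.99, 7.93 and 8.08 in PR+/- pools (log2 difference 0.13, limma adjusted p = 0.476). Dnajc5b, a relative of the cysteine string protein, was at background, with 4.20, 4.08, 4.05, 4.21 and 4.21 in PRKO pools and 3.96, 4.26, 4.47, 4.25 and 4.42 in PR+/- pools.

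Dnajc6, encoding auxilin, which uncoats clathrin vesicles, differed by -0.13, and Dnajc7, which links HSP70 and HSP90, by -0.05. Dnajc5, the cysteine string protein of vesicle release, differed by -0.05 and the ribosome-bound Dnajc2 by 0.03. The remaining Dnajc8, Dnajc9, Dnajc12, Dnajc13, Dnajc21 and Dnajc5g lay between -0.04 and 0.03, and of these Dnajc5g was at background. Dnajc13 had 15 probe sets, whose differences ran from -0.12 to 0.16 with none passing limma. Dnajc2 had the smallest within-genotype SD of the family, 0.03. The 5 genes without an assigned location lay between -0.05 for Dnajc22 and 0.09 for Dnajc4, with a median of 0.02 and no call. Of these Dnajc22 was at background.

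Partners of the family were read from companion lists. Of 26 cofactors of HSP70 and HSP90, 1 passed and was lower in PRKO (background 1.71% lower), and the list median was 0.04. Bag1, a nucleotide exchange factor of HSP70 that also binds steroid receptors, read 8.72, 8.64, 8.53, 8.49 and 8.56 in PRKO pools, against 8.96, 8.90, 8.71, 9.00 and 9.04 in PR+/- pools. The lowest PR+/- pool, number 3, lay within the PRKO range, and Bag1 fell by 0.33 on the log2 scale (SE 0.08, limma adjusted p = 0.0398). The call was lost without any 1 of 8 pools (all but PRKO pool 1 and PR+/- pool 3), with an adjusted p of up to 0.116. Ptges3, the p23 cochaperone of steroid receptor complexes, differed by 0.23 (limma adjusted p = 0.398).

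Of 8 mitochondrial folding and protease genes, 1 passed and was higher in PRKO (background 0.752% higher), and the list median was 0.09. Grpel2, a nucleotide exchange factor of mortalin, read 8.31, 8.30, 8.52, 8.53 and 8.49 in PRKO pools, against 8.12, 8.11, 8.20, 8.10 and 8.07 in PR+/- pools. The genotypes did not overlap, and Grpel2 rose by 0.31 on the log2 scale (SE 0.07, limma adjusted p = 0.0325). That call was lost without any 1 of 7 pools (PRKO pools 3, 4 and 5 and PR+/- pools 1, 2, 4 and 5), with an adjusted p of up to 0.0898. Clpp, a matrix protease, differed by 0.19 (limma adjusted p = 0.294).

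Of 26 genes of ER folding and the unfolded protein response none passed limma, with 4 at an unadjusted p under 0.05 (13.0% of all genes) and a list median of 0.10. Derl1, a channel component of ER-associated degradation, averaged 10.62 ± 0.14 in PRKO pools and 10.37 ± 0.09 in PR+/- pools (SD, n = 5 each) without overlap (limma adjusted p = 0.151). Eif2ak3, encoding the stress kinase PERK, averaged 8.83 ± 0.13 in PRKO pools and 9.02 ± 0.12 in PR+/- pools (limma adjusted p = 0.340). Of the 8 subunits of the cytosolic chaperonin TRiC none passed, with 1 at an unadjusted p under 0.05, and all 8 estimates lay above 0 (median 0.11), as did 44.8% of those of all genes. The genotypes did not overlap for 3 of the 8, where 4.42% of all genes did not. Cct3 and Cct7 differed by 0.18 and 0.14 (limma adjusted p = 0.264 and 0.411). None of the heat shock factor genes Hsf2 (at 0.09) and Hsf4 or their binding protein gene Hsbp1 (at 0.09), of 3 J proteins under other symbols (Hscb at -0.04 and Sec63 at 0.03) or of 9 early-response genes (Atf3 at 0.20 and Fosb at -0.12) passed limma, with 0 of each at an unadjusted p under 0.05. Of these genes Hsf4 and Hscb were at background in both genotypes. Hsf1, the main stress-activated factor, was not analysed here.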

How the data were processed

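Total RNA of 10 granulosa cell pools was labelled with an Affymetrix whole-transcript kit, per the labels' protocols. The authors deposited log2 expression values of 35557 probe sets, and the submitters' processing notes name Partek. Its background correction, normalization and summarization steps are recorded in no source used here, and neither scanner files nor counts were used, so the number of arrays limits the precision. Of the probe sets 21789 had 1 gene symbol, 1621 several and 12147 none, and each of 19938 genes was read by its brightest probe set with 1 symbol. Genotypes (PRKO minus PR+/-) were compared in limma 3.58.1 (R 4.3.3) over all genes, with Benjamini-Hochberg adjustment and a threshold of 0.05. The labels call the pools biological replicates and name no batch. Members and lists were chosen with earlier results of these data known. All members could be named, values by pool being given for the 3 with the smallest p per class and the textbook stress genes. Values by pool of Dnajb4 and Hspa8, with the second probe set of Hspa8, were chosen after they were seen. Of other lists the called genes and the 2 with the smallest p are named. The fit was tested on simulated data. Other normalizations, filters, priors, weights, probe sets, thresholds, a replicate block, an exact permutation test and leaving out each pool were tried. The labels tie no replicate number to a shared litter or day, so the pools were compared unpaired.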

Additional observations from a re-analysis of the deposited data

Results flagged for a closer look

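In 41 named genes, or 82 groups of 5 pools, 12 times a pool stood apart from the other 4 of its genotype by Dixon's criterion, which sets the gap to the nearest pool against the range. For independent groups chance flags about 1 in 20. These groups share the same arrays, and Dnajb4 and Hspa8 were named after their values were seen, so that rate does not apply to the 12. Of the 12 flags, 5 were PRKO pool 2 as the lowest, at 10.72 for Hsph1, 9.42 for Dnajb4, 12.04 for Hsp90aa1, 9.71 for Dnajb1 and 9.16 for Atf3. PRKO pool 5 was the highest at 10.66 for Hspa4, 11.96 for Ptges3 and 10.72 for Cct3. PR+/- pool 3 was the lowest at 11.11 for Hspa9, 5.21 for Hspb11, which is at background, and 10.08 for Cct7. PRKO pool 1 was the highest at 12.001 for Fosb. No cause was tested for any of these.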

How the results depend on the processing

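Under each of the alternatives run, 0 of the 70 chaperones passed, cytosolic and ER genes included. The smallest adjusted p over these settings was 0.0850, for Dnajc14 with array weights. Genes called over the whole array numbered 491, against 360 to 488 leaving out 1 pool, and 258 at an adjusted p under 0.01. With the replicate number as a block, 529 genes and 0 chaperones were called. After the genotype mean of each gene was subtracted, same-numbered PRKO and PR+/- pools correlated at -0.10 to 0.32. By this measure 3 of 5 PRKO pools correlated best with their own number, so whether the numbers pair the pools is undecided. The median difference of the chaperones was 0.00 to 0.04 without 1 pool. The small differences of 6 stress genes and Hspa8 changed sign: with array weights Hspa1a was at -0.11 and Hsph1 at -0.042, with the probe set of its own chromosome block Hspa8 was at -0.022, and without 1 pool Hspa1a ran from -0.20 to 0.35, Hsph1 from -0.066 to 0.21, Hsp90aa1 from -0.11 to 0.041, Dnajb1 from -0.11 to 0.19, Dnajb4 from -0.0042 to 0.28, Hspb1 from -0.53 to 0.12 and Hspa8 from -0.011 to 0.043. All stayed far from the threshold, and the cause was not tested. The count of chaperones with a spread in the top 5% was 4 to 6 without 1 pool and 8 when genes were read by the probe set of their own chromosome block, which adds Dnaja1 and Hspa8. The chromosome-block setting, and every setting tried for this count, were chosen after seeing the data.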
